A study of Mus musculus with 24 samples.

Results

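The suppressor of cytokine signalling (SOCS) family has 8 genes in the mouse, Cish and Socs1 to Socs7. Here they were followed together with Bcl6 and Pim1 in total RNA of adipose tissue. The 10 genes were chosen by symbol, as feedback inhibitors of cytokine receptors and as genes that the transcription factor STAT5 is known to act on, out of 24421 gene symbols that were counted. All mice were C57BL/6 and 2 months old. They were wild type (WT) or carried a substitution of 1 tyrosine of STAT5B, by phenylalanine in Y665F and by histidine in Y665H, and the series as a whole concerns lipid metabolism. Each of the 6 groups, WT, Y665F and Y665H in males and in females, had 4 libraries, which made 24 in all. The labels do not say whether the alleles were heterozygous or homozygous, which fat depot was taken or whether animals were pooled. Nothing beyond the replicate number states that the libraries came from separate animals, so p-values measure the spread between these libraries.

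Cytokine and growth hormone receptors signal through Janus kinases (JAKs), which phosphorylate STAT proteins. Phosphorylated STAT proteins pair through their SH2 domains, the domain in which this tyrosine lies, and switch on target genes that include Cish, Socs1, Socs2, Socs3 and Pim1. The SOCS proteins bind phosphotyrosine through an SH2 domain of their own and recruit a ubiquitin ligase through the SOCS box, which closes a negative feedback loop. Socs2 is known above all as a brake on growth hormone signalling, and Socs3 as a brake on leptin and interleukin-6 type receptors. Bcl6 is a transcriptional repressor that binds some of the same DNA sites as STAT5 and is itself lowered by growth hormone in liver. Pim1 is a serine/threonine kinase that promotes survival and growth downstream of cytokines.

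Because STAT dimers bind the palindrome TTCNNNGAA, the 250 bases upstream of the annotated starts were searched for it. RefSeq promoter windows on GRCm38.p6 existed for 6 of the 10 genes (Cish, Socs1, Socs3, Socs4, Bcl6 and Pim1), in 8 windows, of which 3 held the motif. The motif reads the same on both strands, and at least 1 match was present in 7.02% of all 32851 windows. The 3 windows are shown 5′ to 3′ on the minus strand, with the matches in capitals, to let the spacing of the matches be compared.
Socs3 upstream window, chr11:117969367-117969616: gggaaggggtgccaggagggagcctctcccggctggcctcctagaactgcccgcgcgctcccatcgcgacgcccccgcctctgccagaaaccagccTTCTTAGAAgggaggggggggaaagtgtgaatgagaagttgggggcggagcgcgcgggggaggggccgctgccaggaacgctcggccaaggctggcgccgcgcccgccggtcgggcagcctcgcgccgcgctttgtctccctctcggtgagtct
Bcl6 first upstream window, chr16:23988853-23989102: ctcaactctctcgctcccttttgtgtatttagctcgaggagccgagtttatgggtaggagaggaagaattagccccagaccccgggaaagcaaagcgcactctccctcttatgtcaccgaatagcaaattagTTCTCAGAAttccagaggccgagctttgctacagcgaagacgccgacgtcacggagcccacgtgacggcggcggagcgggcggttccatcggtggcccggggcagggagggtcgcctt
Bcl6 second upstream window, chr16:23981284-23981533: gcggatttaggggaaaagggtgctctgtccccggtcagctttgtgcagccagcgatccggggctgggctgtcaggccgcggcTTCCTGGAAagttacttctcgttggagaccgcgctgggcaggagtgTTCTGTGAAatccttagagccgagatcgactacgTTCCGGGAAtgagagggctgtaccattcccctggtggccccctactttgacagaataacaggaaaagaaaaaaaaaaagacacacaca

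Socs3 held TTCTTAGAA at 154 to 146 bases before the start. The first Bcl6 window held TTCTCAGAA at 118 to 110 bases before its start. By GENCODE positions, the Socs3 window, the Cish window and the more downstream Pim1 window lay inside their genes. The second Bcl6 window also belonged to a start that lies inside the gene. It held 3 matches, TTCCTGGAA at 168 to 160, TTCTGTGAA at 122 to 114 and TTCCGGGAA at 88 to 80 bases before the start, and 9 of the 32851 windows (0.0274%) had at least 3. These letters were not found in the windows of Cish, Socs1, Socs4 and Pim1. A match describes the sequence only, and binding was not measured.

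Depth ran from 21.0 to 41.3 M counts in genes per library (M, 1e6), with a median of 34.6 M, and levels are counts per 1e6 of these (CPM). The lowest count of a member in any library was 33, for Socs1, and all 10 members passed the low-count filter in every comparison. Differences were tested per gene with edgeR's quasi-likelihood test on TMM-scaled counts, and called means a Benjamini-Hochberg adjusted p under 0.05 over all tested genes. Stat5b, the mutated gene, was not called against WT in any of the 4 contrasts (edgeR adjusted p 0.282 to 0.932), and a point mutation cannot be seen in gene counts. All 12 adipocyte markers were detected at a mean of at least 1 CPM. Other tissue was present in some libraries. The 8 epididymis markers summed to 1.12 to 11980 CPM in WT males, 0.0251 to 960.1 CPM in Y665F males, 1.70 to 1605 CPM in Y665H males and at most 0.584 CPM in females, where Defb20, Defb21 and Cst11 had no count in any group. The 15 skeletal muscle markers, none of them at 0, summed to 142.4 to 1652 CPM in WT females, 78.2 to 209.0 CPM in Y665F females, 63.6 to 2885 CPM in Y665H females and 55.7 to 301.0 CPM in males.

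Compared per length of exon, the members covered about an order of magnitude. Socs7, which is known to bind insulin receptor substrates, had the highest median over 24 libraries, 7.04 CPM per kb, followed by Bcl6 with 5.82 and Socs5 with 5.64 CPM per kb. Pim1 at 4.98, Socs3 at 4.71, Socs4 at 3.35 and Socs6 at 3.13 CPM per kb formed the middle. At the bottom were Socs2, Cish and Socs1, with medians of 2.01, 1.75 and 0.710 CPM per kb. Of the STAT target genes named above, these lay lowest, while Socs3 and Pim1 were in the middle. The ranges of neighbours overlapped throughout this order. Lengths are the union of GENCODE exons, so a library that uses a short isoform has a higher true density. Opposite-strand genes share 11.5% of the exon bases of Cish and 14.5% of those of Pim1, and the strand setting of the counting is not given in the sources used here.

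**Figure D1:**
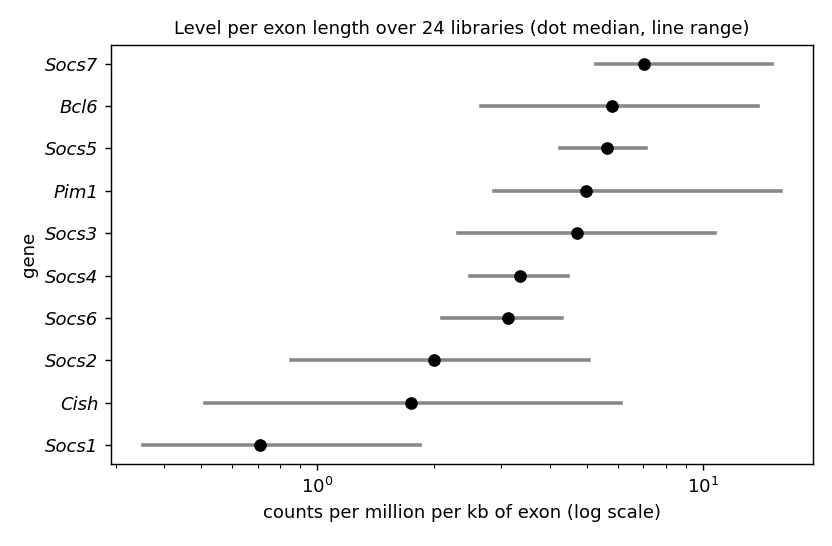
Level of each gene per exon length on a log axis, in CPM per kb, with the median of 24 libraries as a dot and the lowest and highest library as a line. Socs7 has the highest median at 7.04 CPM per kb and Socs1 the lowest at 0.710 CPM per kb.

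The members also differed in how tightly replicates agreed. Within groups the coefficient of variation had a median over the 6 groups of 7.20% for Socs4, 8.32% for Socs5, 11.5% for Socs7 and 11.7% for Socs6. It was 61.4% for Cish, 28.6% for Bcl6, 25.8% for Socs1 and 25.4% for Pim1. Socs2 and Socs3 lay between, at 18.0% and 17.9%. From the lowest to the highest of the 24 libraries, Socs5 spanned 1.67-fold and Cish 12.0-fold. A change of a given size was therefore easier to detect in Socs4 and Socs5 than in Cish.

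**Figure D2:**
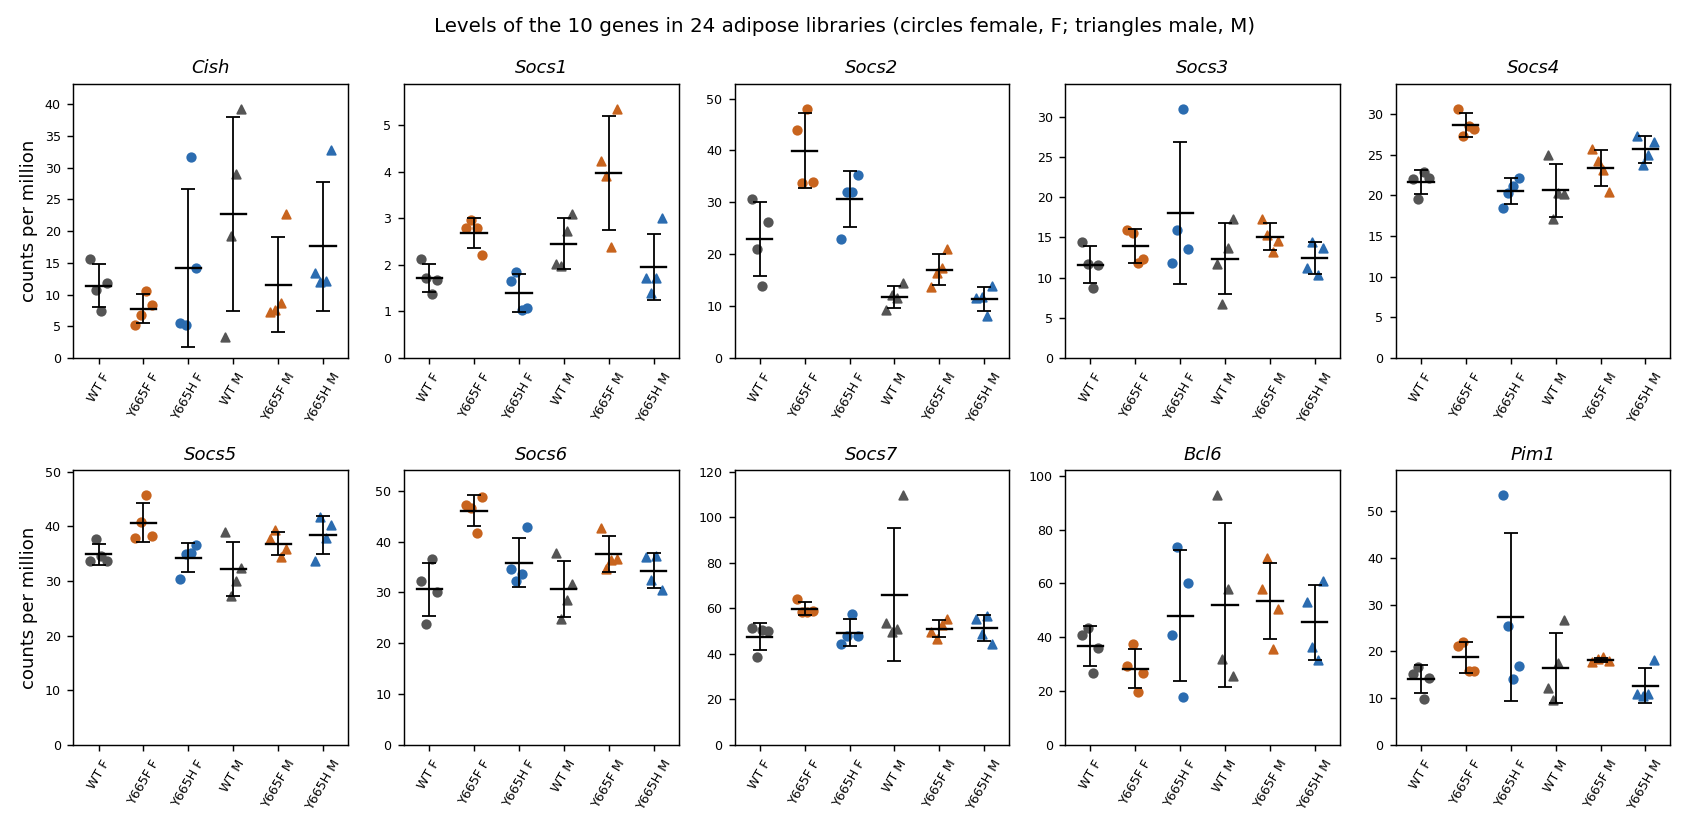
CPM of the 10 genes in each library by group, with circles for females, triangles for males, and black lines for the mean and SD of 4 libraries. Socs2 is lower in males than in females of the same genotype apart from 1 low WT female at 13.9 CPM, while Cish and Bcl6 spread widely within groups.

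The clearest difference among the members was between males and females, in Socs2. The labels do not name the fat depot. In every comparison of males with females, sex therefore cannot be told apart from a difference in the depot taken. Socs2, the brake on growth hormone receptor signalling, was lower in males of all 3 genotypes, by 2.16-fold in WT, 2.31-fold in Y665F and 2.98-fold in Y665H. The gene lies at chr10:95385362-95417180 on the minus strand (GENCODE, GRCm38). In WT it was at 9.27, 12.1, 11.5 and 14.4 CPM in the males and at 30.7, 21.0, 13.9 and 26.2 CPM in the females. The Y665F males had 13.6, 16.4, 17.3 and 20.9 CPM and the Y665F females 44.0, 33.8, 48.1 and 33.9 CPM. Y665H males had 11.6, 11.8, 8.13 and 13.8 CPM and Y665H females 22.9, 32.1, 32.1 and 35.4 CPM. In CPM, males and females did not overlap in Y665F or Y665H, whereas WT female 3 fell just below WT male 4. With TMM scaling the sexes did not overlap in any of the 3 genotypes.

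The fold change of Socs2 in males against females was -1.11 on the log2 scale in WT (SE 0.24, edgeR adjusted p 0.0256 over 15865 genes). In WT, 1 of the 10 members was called, Socs2, against 13.1% of all tested genes. The call in WT was not stable: it was lost without WT male 3, WT female 1, WT female 2 or WT female 4, where the edgeR adjusted p reached 0.0822. In Y665F the log2 fold change was -1.21 (SE 0.15, edgeR adjusted p 0.00555) and in Y665H it was -1.58 (SE 0.17, edgeR adjusted p 0.000418). Both were called in all 8 fits that left out 1 library. The members called numbered 2 of 10 in each mutant, beside 15.1% of all tested genes in Y665F and 28.8% in Y665H, so the share of members was near the background in each genotype.

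**Figure D3:**
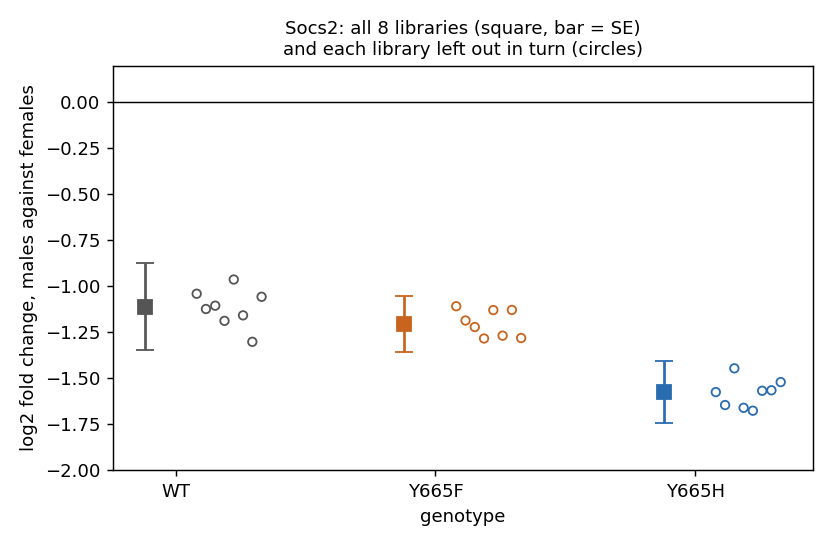
log2 fold change of Socs2 in males against females for each genotype, from all 8 libraries (square, with SE) and from the 8 fits that each leave out 1 library (circles). All values lie below 0, from -1.68 to -0.96.

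The step of Socs2 between the sexes was then set beside the marker levels that also differ between them. The males with an epididymis sum under 100 CPM were WT male 1, Y665F males 2 and 3 and Y665H males 1 and 2, and their Socs2 levels of 9.27, 16.4, 17.3, 11.6 and 11.8 CPM were each below every female of the same genotype. With these males only, a choice made after the data were examined, the log2 fold change was -1.38 (SE 0.42) in WT with 1 male, -1.17 (SE 0.17) in Y665F and -1.49 (SE 0.17) in Y665H. The edgeR adjusted p values were 0.194, 0.0319 and 0.00672. The 10 fibroblast markers summed to 4445 to 7849 CPM in males and 7822 to 18098 CPM in females. The 12 adipocyte markers, none at 0, summed to 6945 to 19436 CPM in WT males and 21677 to 25220 CPM in WT females, and to 17223 to 21735 and 28321 to 30998 CPM in Y665H, with no overlap of the sexes. In Y665F they overlapped, at 11375 to 19508 CPM in males and 12695 to 22101 CPM in females. The part of either list in the Socs2 difference was not tested. In bulk tissue, fewer cells of a type and less RNA per cell cannot be told apart. With only the females under 500 CPM of muscle markers, the difference was -0.76 (SE 0.24, edgeR adjusted p 0.250) in WT, which left 2 WT females, and -1.47 (SE 0.21, edgeR adjusted p 0.00995) in Y665H.

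A change of the Socs2 sex difference by either mutation was not detected. The difference of differences was -0.09 (SE 0.29, edgeR adjusted p 0.885) for Y665F and -0.44 (SE 0.30, edgeR adjusted p 0.424) for Y665H on the log2 scale, each over 16 libraries. The sign for Y665F turned when single libraries were left out. No member passed the test of either interaction, beside 0.0% of 16732 genes for Y665F and 0.0178% of 16827 for Y665H. At an unadjusted p under 0.05 there were 0 members for Y665F and 2 for Y665H, beside 21.8% and 17.9% of genes, and DESeq2 called none, beside 6.89% and 4.09%. The 2 were Pim1, at -1.36 (SE 0.57, edgeR adjusted p 0.240), and Socs4, at 0.40 (SE 0.16, edgeR adjusted p 0.234). These counts rested on WT male 1. Without it 1686 genes passed the test for Y665F and 1844 for Y665H, among them 1 member, Socs4 for Y665H, at an edgeR adjusted p of 0.0150, and no other single library gave more than 14 genes. WT male 1 had an epididymis sum of 1.12 CPM, while WT males 2, 3 and 4 had 11980, 3073 and 1206 CPM. With only the males under 100 CPM of epididymis markers, which left WT male 1 alone in its group, the Socs4 value for Y665H was 0.08. The part of epididymis RNA in these counts was not tested.

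Socs2 also had its highest mean level in Y665F within each sex. Y665F females differed from WT females by 0.66 in log2 units (SE 0.23, edgeR adjusted p 0.123), and the male contrast gave 0.61 (SE 0.17, edgeR adjusted p 0.188). Neither was called. The female groups did not overlap, since the lowest Y665F female, at 33.8 CPM, stood above the highest WT female, at 30.7 CPM. Y665H males against Y665F males gave -0.63 (SE 0.18, edgeR adjusted p 0.138). DESeq2 called these 3 contrasts, with adjusted p of 0.0453, 0.0220 and 0.0348. Y665H females overlapped with Y665F females, at a difference of -0.24 (SE 0.14, edgeR adjusted p 0.259). DESeq2 did not call it either (adjusted p 0.287).

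Cish, the founding member of the family and a gene that STAT5 switches on, varied widely between replicates. It lies at chr9:107296026-107302784 on the plus strand. WT males had 3.28, 19.2, 29.1 and 39.3 CPM, Y665F males 7.22, 7.61, 8.63 and 22.7 CPM, and Y665H males 13.4, 12.0, 12.2 and 32.8 CPM. In females it was at 15.7, 10.7, 7.44 and 11.8 CPM in WT, 5.20, 6.80, 10.6 and 8.39 CPM in Y665F, and 5.53, 5.16, 31.7 and 14.2 CPM in Y665H. All 3 male groups overlapped, as did all 3 female groups. The only contrast with an unadjusted p under 0.05 was Y665F against WT females, at -0.69 (SE 0.26, edgeR adjusted p 0.143).

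The level of Cish in females was set beside the muscle sum. Y665H female 3 had the highest Cish, 31.7 CPM, and the highest muscle sum, 2885 CPM, while Y665H females 1 and 2 had 5.53 and 5.16 CPM with muscle sums of 63.6 and 277.6 CPM. In WT females, the 2 libraries with the larger muscle sums, 948.4 and 1652 CPM, had Cish at 15.7 and 11.8 CPM, and the other two had 10.7 and 7.44 CPM. With only the females under 500 CPM of muscle markers, the Y665F against WT difference of Cish was -0.38 on the log2 scale. The same limit turned the sign of both Y665H contrasts, from 0.31 to -0.72 (SE 0.25, edgeR adjusted p 0.414) against WT and from 1.01 to -0.34 (SE 0.27, edgeR adjusted p 0.426) against Y665F females. Among males, Y665F male 4 had the highest Cish and the highest epididymis sum of its group, at 22.7 and 960.1 CPM. Y665H male 3 had the highest sum of its group, 1605 CPM, with Cish at 12.2 CPM. Y665H male 4 had a sum of 165.7 CPM with Cish at 32.8 CPM. WT males 2, 3 and 4, with sums of 11980, 3073 and 1206 CPM, had Cish at 19.2, 29.1 and 39.3 CPM. WT male 1 had both the lowest Cish of its group, at 3.28 CPM, and the lowest epididymis sum, at 1.12 CPM. With only the males under 100 CPM of epididymis markers, which left this 1 WT male, Y665F against WT turned from -0.89 to 1.34 (SE 0.32, edgeR adjusted p 0.496), Y665H against WT from -0.35 to 1.93 (SE 0.29, edgeR adjusted p 1.00) and the sexes in WT from 0.82 to -1.87 (SE 0.42, edgeR adjusted p 0.0973). The sexes in Y665H turned from 0.16 to -0.25 (SE 0.72). None of these was called. The part of muscle or epididymis RNA in the spread of Cish was not tested.

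Socs1 and Socs3, which act directly on JAK kinases and are induced by many cytokines, gave no call in any comparison. Socs1, the main brake on interferon gamma signalling, was at 4.24, 3.92, 2.38 and 5.36 CPM in Y665F males against 2.01, 1.98, 2.73 and 3.10 CPM in WT males and 1.71, 1.39, 1.72 and 3.00 CPM in Y665H males. Y665F females had 2.78, 2.96, 2.78 and 2.21 CPM, WT females 2.12, 1.71, 1.37 and 1.68 CPM, and Y665H females 1.65, 1.84, 1.03 and 1.08 CPM. Y665F had the highest mean in each sex. In CPM its female libraries all lay above those of the other female groups, while its males overlapped with both other male groups. With TMM scaling the Y665F females overlapped with WT females but not with Y665H females.

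For Socs1, Y665H females differed from Y665F females by -0.78 in log2 units (SE 0.24, edgeR adjusted p 0.0572) and Y665H males from Y665F males by -1.07 (SE 0.30, edgeR adjusted p 0.125). DESeq2 put both under the threshold, with adjusted p of 0.0239 and 0.0262. The contrasts of Y665F with WT gave 0.51 (SE 0.18, edgeR adjusted p 0.133) for females, and for males 0.76 (SE 0.27, edgeR adjusted p 0.252). Leukocyte markers stood in the same order in females. The 14 T and NK cell markers, 12 of them listed in the files, summed to 67.4 to 85.7 CPM in Y665F, 43.0 to 72.5 CPM in WT and 33.3 to 54.0 CPM in Y665H females. The 12 macrophage markers summed to 1459 to 2338, 1048 to 1455 and 766.1 to 1120 CPM, with none at 0 in either list. In males the order was not the same. The median macrophage sums were 1681, 1125 and 1333 CPM in Y665F, WT and Y665H males, and the median T and NK cell sums 77.1, 42.1 and 44.4 CPM. The mean of Socs1 was 3.97, 2.46 and 1.96 CPM in these male groups. The part of the leukocyte markers in the Socs1 values was not tested.

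Socs3 stayed within 6.68 to 17.3 CPM in 23 of 24 libraries, and the exception was Y665H female 3 at 31.1 CPM. That library also had the highest Cish of the females and the highest muscle sum. Males against females in Y665H gave -0.68 (SE 0.29, edgeR adjusted p 0.107), which became -0.30 without Y665H female 3. No other contrast of Socs3 had an unadjusted p under 0.05.

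Socs4 and Socs5, the pair with long N-terminal regions that have been linked to epidermal growth factor receptor turnover, were the most even members. Socs4, at chr14:47276931-47296102 on the plus strand, gave the single call of a member between genotypes. Y665F females had 30.7, 27.3, 28.5 and 28.1 CPM and Y665H females 18.4, 20.3, 21.2 and 22.2 CPM, with no overlap. The log2 fold change of Y665H against Y665F was -0.34 (SE 0.07, edgeR adjusted p 0.0148), a 1.26-fold decrease. It was the 1 member called of 10, beside 17.4% of all tested genes. The call was lost without Y665F female 1 (edgeR adjusted p 0.0591) and in the fit over all 24 libraries (0.0543).

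WT females had Socs4 at 22.0, 19.6, 22.9 and 22.1 CPM, close to Y665H and below all Y665F females. Y665F against WT gave 0.27 (SE 0.08, edgeR adjusted p 0.0885), which DESeq2 called with an adjusted p of 0.0284. In males the order was not the same: Y665H males had the highest mean, 25.7 ± 1.64 CPM, against 23.4 ± 2.23 CPM in Y665F and 20.6 ± 3.25 CPM in WT (SD, n = 4), and the groups overlapped. Males exceeded females without overlap in Y665H (0.17, SE 0.07) and were below them without overlap in Y665F (-0.27, SE 0.10). Neither difference was called, and the smaller of the edgeR adjusted p was 0.109. Socs5 ran from 27.3 to 45.7 CPM over all libraries, its group means lay between 32.2 ± 4.99 CPM in WT males and 40.7 ± 3.57 CPM in Y665F females (SD, n = 4), and no contrast had an unadjusted p under 0.05.

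Socs6 and Socs7, which are linked to insulin receptor and KIT signalling, had their highest female means in Y665F. Socs6 was at 47.3, 46.6, 41.7 and 48.7 CPM there, against 32.2, 23.9, 36.5 and 30.0 CPM in WT females and 34.6, 32.3, 33.5 and 43.0 CPM in Y665H females. The Y665F and WT females did not overlap. The log2 fold change of Socs6 in Y665F against WT females was 0.46 (SE 0.13, edgeR adjusted p 0.0826), and DESeq2 called it with an adjusted p of 0.0208. Males were at 24.7 to 42.7 CPM in all genotypes. Against the females of Y665F, the males of Y665F had a log2 difference of -0.28 (SE 0.09, edgeR adjusted p 0.0710).

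Socs7 was at 64.0, 58.5, 58.2 and 58.6 CPM in Y665F females, 51.3, 38.4, 50.3 and 49.8 CPM in WT females and 44.0, 47.8, 57.5 and 47.8 CPM in Y665H females. In CPM the Y665F females stood above all other females. With TMM scaling they overlapped with Y665H females but not with WT females. Males of the mutants ranged from 44.3 to 56.6 CPM. WT male 4 stood apart at 109.5 CPM, with 53.2, 49.7 and 51.0 CPM in the other WT males. The only contrast of Socs7 with an unadjusted p under 0.05 was males against females in Y665F, at -0.21 (SE 0.07, edgeR adjusted p 0.0685), where the sexes did not overlap.

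Bcl6, the repressor that shares DNA sites with STAT5, was higher in Y665F males than in Y665F females. The gene lies at chr16:23965052-23988852 on the minus strand. The Y665F males had 58.1, 69.5, 35.5 and 50.6 CPM and the females 29.2, 37.3, 19.6 and 26.9 CPM, with an overlap of 1 male and 1 female. The log2 fold change was 0.94 (SE 0.26, edgeR adjusted p 0.0442). This call was marginal: it held in 1 of the 8 fits that left out a library, that without Y665F female 2, and the fit over all 24 libraries gave an adjusted p of 0.121. With Y665F males under 100 CPM of epididymis markers only, the value was 0.97 (SE 0.34, edgeR adjusted p 0.135). Of the 12 B cell markers 11 were listed, and they summed to 43.1 to 78.1 CPM in Y665F males and 41.7 to 60.6 CPM in Y665F females.

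In WT, Bcl6 was at 92.8, 31.9, 58.1 and 25.6 CPM in males and 40.8, 43.4, 26.7 and 35.9 CPM in females. Y665H males had 53.2, 36.4, 31.5 and 61.0 CPM and Y665H females 40.7, 73.5, 17.8 and 60.3 CPM. The sexes overlapped in both genotypes, and no other contrast of Bcl6 had an unadjusted p under 0.05. Neither mutant had a sex interaction of Bcl6 below that limit. Bcl6b, the closest relative of Bcl6, was higher in males of Y665F by a log2 difference of 1.49 (SE 0.21, edgeR adjusted p 0.00688) and of Y665H by 0.84 (SE 0.20, edgeR adjusted p 0.0137), and both calls held in all 8 fits that left out a library. The 10 endothelial markers summed to 1319 to 1593 CPM in Y665F males and 1056 to 1266 CPM in Y665F females. In Y665H they summed to 1508 to 1700 CPM in males and 1172 to 1283 CPM in females. The sexes did not overlap in either mutant but did in WT. The part of these markers in the Bcl6b values was not tested.

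Pim1, the survival kinase, was lower in males than in females of Y665H. It lies at chr17:29490753-29496112 on the plus strand. Males had 10.8, 10.4, 10.9 and 18.2 CPM and females 53.4, 25.4, 14.1 and 16.8 CPM. The groups overlapped, and Y665H female 1 had more than any other library. The log2 fold change was -1.31 (SE 0.42, edgeR adjusted p 0.0433). Without Y665H female 1 it was -0.71 and not called, and the call held in 2 of the 8 fits that left out a library. Scaling by library totals also ended it, as did restricting the males to an epididymis sum under 100 CPM, at -1.50 (SE 0.59, edgeR adjusted p 0.136). With only the females under 500 CPM of muscle markers it was -1.88 and still called (SE 0.34, edgeR adjusted p 0.0165).

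In the other groups Pim1 was at 12.1, 9.62, 17.4 and 26.6 CPM in WT males, 15.2, 16.7, 9.86 and 14.2 CPM in WT females, 17.7, 18.4, 18.7 and 17.9 CPM in Y665F males and 21.2, 21.9, 15.8 and 15.8 CPM in Y665F females. Y665F males were the tightest group of any member, with a coefficient of variation of 2.66%. Y665H against WT females gave 1.01 (SE 0.41, edgeR adjusted p 0.180), and 0.40 without Y665H female 1. Among males, Y665H against Y665F gave -0.59 (SE 0.18, edgeR adjusted p 0.142), and without Y665H male 4 it was -0.80 and called (edgeR adjusted p 0.0288).

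Taking all 10 genes side by side, no member was called in the 4 contrasts of a mutant with WT. In Y665F against WT females, 0 members were called by edgeR, beside 3.33% of all tested genes, 5 had an unadjusted p under 0.05, beside 26.3%, and DESeq2 called 3, beside 13.0%. Of the 10 log2 fold changes 8 were above 0, with a median of 0.24 beside 0.02 for all genes. In CPM, 6 members (Socs1, Socs2, Socs4, Socs5, Socs6 and Socs7) were higher in Y665F females without overlap, beside 19.9% of genes. With TMM scaling, which corrects for composition, 4 were (Socs2, Socs4, Socs6 and Socs7), beside 9.04% of genes. Library totals moved the median of all genes from 0.02 to 0.15 in this contrast, so the count in plain CPM includes that shift.

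Y665F against WT males also had 0 members called by edgeR, beside 0.0% of genes, with 2 at an unadjusted p under 0.05, beside 16.9%, and 1 called by DESeq2, beside 6.38%. The median of the members was 0.26, beside -0.01 for all genes. In Y665H against WT, 0 members were called in females, beside 3.34% of genes, and 0 in males, beside 0.0%. At an unadjusted p under 0.05 there were 1 and 0 members, beside 23.8% and 11.4% of genes, and DESeq2 called none, beside 11.5% and 0.39%. The members' median log2 fold change was 0.28 in females and -0.13 in males, beside 0.00 and -0.05 for all genes. Both mutants were compared with the same WT libraries.

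Between the mutants, Y665H against Y665F called Socs4 in females, as described. In CPM, 4 members (Socs1, Socs4, Socs5 and Socs7) were lower in Y665H females without overlap, beside 21.5% of genes, and with TMM scaling 2 were (Socs1 and Socs4), beside 11.9%. In males 0 members were called by edgeR, beside 1.03% of genes, 3 had an unadjusted p under 0.05, beside 18.0%, and DESeq2 called 3, beside 6.74%. Between the sexes, no overlap in CPM was found for 0 members in WT, for Socs2, Socs4 and Socs7 in Y665F (3 lower in males, beside 13.5% of genes), and for Socs2 (lower, beside 8.87%) and Socs4 (higher, beside 23.7%) in Y665H.

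**Figure D4:**
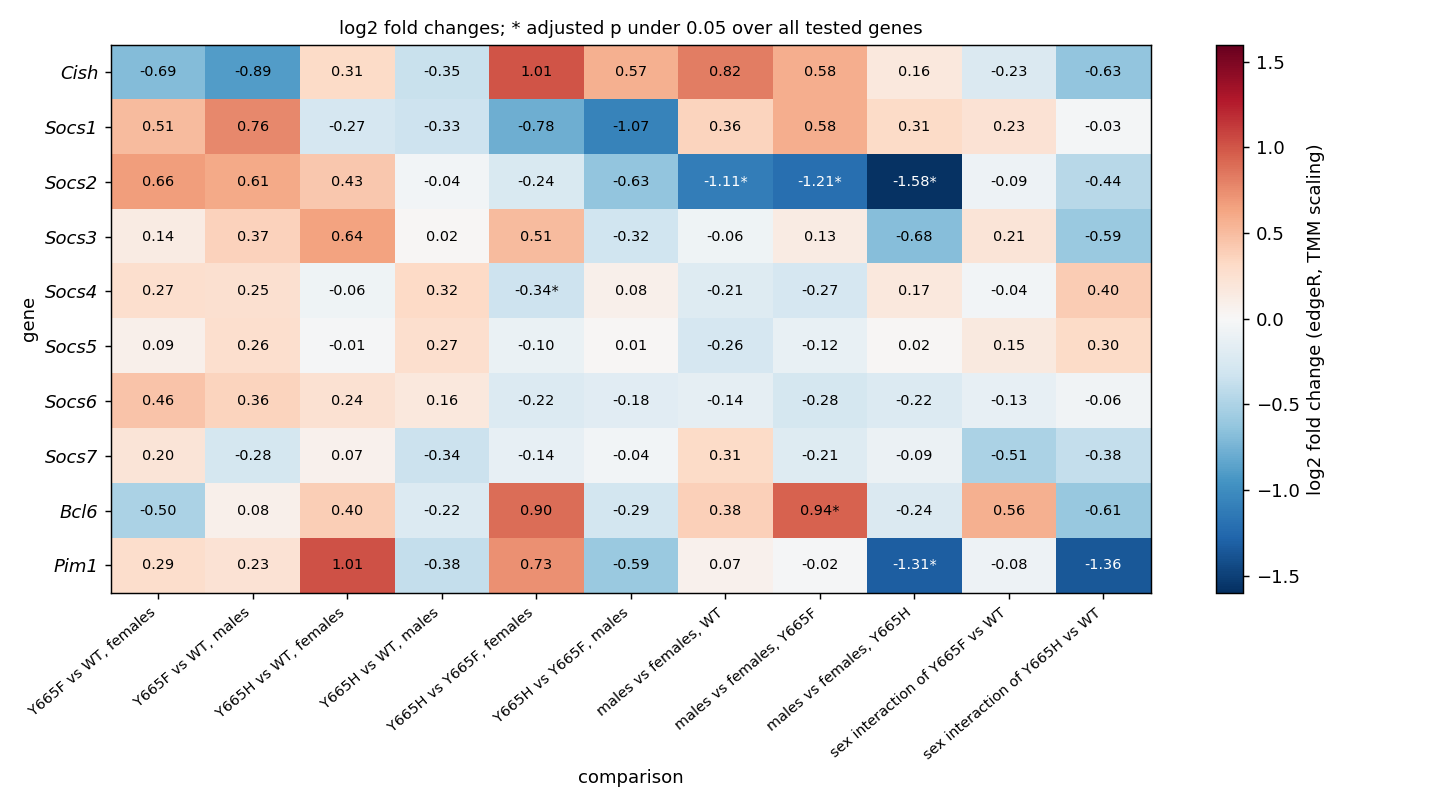
log2 fold changes of the 10 genes (rows) in the 9 comparisons of groups and the 2 sex interactions (columns), with red for higher and blue for lower in the first-named group and a star for an edgeR adjusted p under 0.05. Socs2 is starred in all 3 comparisons of the sexes, Bcl6, Pim1 and Socs4 once each.

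The genes around the members in the pathway were described with lists. Of 28 cytokine receptor genes, 27 were tested in Y665F against WT females, 2 rose (Il2rb and Il7r) and none fell, beside 3.33% of all genes called, with a median log2 fold change of 0.05 beside 0.02 for all genes. Il2rb, the beta chain of the interleukin-2 receptor, rose by 1.57 (SE 0.20, edgeR adjusted p 0.0113), from 4.12 ± 0.864 to 13.4 ± 2.04 CPM (SD, n = 4). Il7r was called in 1 of 8 fits that left out a library. In Y665H against Y665F females 8 of 27 receptor genes fell and none rose, beside 17.4% of all tested genes called in either direction, and Il2rb had -2.58 (SE 0.18, edgeR adjusted p 0.00105). Macrophage markers summed to 766.1 to 1120 CPM in these Y665H females and 1459 to 2338 CPM in the Y665F females, and T and NK cell markers to 33.3 to 54.0 and 67.4 to 85.7 CPM, neither with overlap. Their part in the receptor values was not tested. By sex, the interleukin-4 receptor gene Il4ra was lower in males of all 3 genotypes, with log2 fold changes of -1.19 (SE 0.32), -1.57 (SE 0.24) and -1.78 (SE 0.31) in WT, Y665F and Y665H. The edgeR adjusted p values were 0.0464, 0.00865 and 0.00318. In WT this call held in 1 of 8 fits that left out a library.

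All 11 JAK and STAT genes were tested. In Y665H against Y665F females 3 fell (Stat4, Stat6 and Tyk2), beside 17.4% of all genes called, and in males 2 fell (Tyk2 and Stat2), beside 1.03%. The 3 calls in females held in all 8 fits that left out a library, while in males Tyk2 held in 5 and Stat2 in 1. Tyk2, a Janus kinase, fell by 0.45 in the females (SE 0.09, edgeR adjusted p 0.0100) and by 0.63 in the males (SE 0.07, edgeR adjusted p 0.0126). Of 21 other inhibitors of the pathway, 2 rose in Y665F against WT females, beside 3.33% of all genes called. They were Ptprc and Ptpn6, the phosphatase genes of leukocytes. Ptprc rose by 1.21 (SE 0.17, edgeR adjusted p 0.0160), from 36.1 ± 5.92 to 91.1 ± 17.2 CPM (SD, n = 4), beside the macrophage and lymphocyte sums given above. The call of Ptprc held in 6 of the 8 fits that left out a library and that of Ptpn6 in 2. In Y665H males against females 7 of the 21 rose and 2 fell, beside 28.8% of all genes called.

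Of 10 genes for the ubiquitin ligase that the SOCS box recruits, 8 were listed in the files. None was called in the 4 contrasts with WT. Of all genes, 3.33% were called there in Y665F females, 3.34% in Y665H females and 0.0% in the males of either mutant. By sex, Cul5, the scaffold of that ligase, fell by 0.25 on the log2 scale in Y665F males (SE 0.07, edgeR adjusted p 0.0380), a call that held in none of the 8 fits that left out a library. Rnf7, its RING subunit, fell by 0.46 in Y665H males (SE 0.07, edgeR adjusted p 0.00188), a call kept in all 8. Among 10 relatives and partners of Pim1 and Bcl6, 5 rose in Y665F males against females and none fell, beside 15.1% of all genes called. Of 32 further STAT5 targets, 24 were tested in Y665F against WT females, and 1 was called (Gzmb, higher), beside 3.33% of all genes. The call of Gzmb held in 1 of the 8 fits that left out a library. In Y665H against Y665F females 1 of the targets rose and 6 fell, beside 17.4% of all genes called. Of these 7 calls, 3 held in all 8 fits that left out a library and 3 held in 2 of them. None of 16 immediate early genes was called in Y665F against WT females or males, beside 3.33% and 0.0% of all genes.

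Finally, genes were ranked by how closely their deviations from the group means followed each member over the 24 libraries, among 14838 genes, as a description only, since the points share depth and tissue makeup. The closest to Cish were Cacnb1, Plagl2 and Eno3, with a Spearman correlation of 0.76 for Cacnb1. Socs1 was followed by Clcf1 (0.78) and Nr4a3, and Socs2 by Zfp940 (0.78), Actn2 and Zbtb40. Socs3 had Selp (0.82), Bcl3 and Msl1, Socs4 had Wdr26 (0.88), Aim2 and Tmem168, and Socs5 had Mbnl2 (0.86), Dcbld2 and Inpp5a. Socs6 was closest to Gxylt1 (0.90), Hmgn5 and Sec62, and Socs7 to Ift172 (0.88), Hbs1l and Asrgl1. Bcl6 was closest to Gypc (0.80), Fam49b and Tuba1b, and Pim1 to Blvrb (0.84), Atg9a and Elmod3. Among the 45 pairs of members, the closest were Socs1 with Pim1 (0.70), Cish with Socs2 (0.62) and Socs4 with Socs6 (0.60).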

How the data were processed

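The deposited files hold raw counts of reads per gene symbol for each library. Stranded libraries depleted of ribosomal RNA were sequenced as read pairs by the authors, per the labels' protocols. Per the submitters' processing notes, the tools were FastQC 0.11.9, Trimmomatic 0.36, STAR, SAMtools 1.9, Picard 2.9.2 and HTSeq 0.9.1, with the build mm10. The annotation and strand setting are not given in the sources used here. The 5 entries that name no gene, 24.8 to 39.7% of a library's counts, stayed out of library sizes and tests.

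Libraries were grouped by title. Each comparison of 2 groups was fitted on its 8 libraries, and each interaction on 16, by edgeR 4.0.16 (R 4.3.3; quasi-likelihood test), with TMM scaling, filterByExpr and Benjamini-Hochberg adjustment over all tested genes. Genes whose adjusted p lay under 0.05 are called. The scripts were checked on simulated data. DESeq2 1.42.0 was an alternative, with other scalings, no filter, 1 fit of all 24 libraries and each library left out in turn. Libraries of 1 group differed by more than sampling noise, with a chi-square per degree of freedom of at least 16.4. Gene positions and exon lengths came from GENCODE on GRCm38. The members and lists were chosen with earlier results of these data known. All 10 members were named in every comparison, and of each list at most 4 called genes per comparison, those with the smallest p. Results of a few single genes are left out here.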

Additional observations from a re-analysis of the deposited data

Results flagged for a closer look

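In 6 of 60 groups of 4 libraries, the highest or lowest library of a member lay farther from the rest than Dixon's limit for 4 values, and chance flags about 1 in 20 groups. Cish was at 22.7 CPM in Y665F male 4 against 7.22 to 8.63 CPM in the other 3 males, and at 32.8 CPM in Y665H male 4 against 12.0 to 13.4 CPM. Pim1 was at 18.2 CPM in the same Y665H male 4, against 10.4 to 10.9 CPM. Socs7 was at 109.5 CPM in WT male 4 against 49.7 to 53.2 CPM, at 38.4 CPM in WT female 2 against 49.8 to 51.3 CPM, and at 64.0 CPM in Y665F female 1 against 58.2 to 58.6 CPM.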

How the results depend on the processing

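The log2 fold changes of the members with an unadjusted p under 0.05, and of Socs2 in both interactions, were 28 results. All 28 kept their direction in the alternatives that used all libraries. Their side of the threshold was kept by 28 with the size factors of DESeq2, 23 with library totals, 27 without a filter, 18 under the DESeq2 Wald test and 25 in the fit over all 24 libraries. Leaving out 1 library changed no sign except for Socs2 in the interaction of Y665F with sex, at 0.013 without Y665F male 1, 0.13 without WT female 3 and 0.010 without Y665F female 1 (range over all libraries -0.21 to 0.13), and 0.24 with only males under 100 CPM of epididymis markers. The cause was not tested.

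The number of members called was 0 in Y665F against WT females, and 2 with library totals and 3 with DESeq2. It was 0 in Y665F against WT males and 1 with DESeq2. In Y665H against Y665F females it was 1, and 3 with library totals, 2 with DESeq2 (which called 3897 of all 15493 genes), 0 over all 24 libraries and 0 to 2 with 1 library left out. In the same contrast in males it was 0, and 3 with DESeq2, 1 over all 24 libraries and 0 to 1 with 1 library left out. For males against females it was 1 in WT, and 0 to 3 with 1 library left out, 0 with only males under 100 CPM of epididymis markers and 0 with only females under 500 CPM of muscle markers. In Y665F it was 2, and 1 without a filter, 4 with DESeq2, 1 over all 24 libraries, 1 to 2 with 1 library left out and 1 with the epididymis limit. In Y665H it was 2, and 1 to 2 with 1 library left out and 1 with the epididymis limit. In the interaction of Y665H with sex it was 0, and 0 to 1 with 1 library left out. Both limits were chosen after the data were examined, as was the TMM scaling of the counts of groups without overlap.

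With the replicate number as a replicate block, 1 member was called in Y665F against WT females, 0 in Y665H against Y665F females, 0 for the sexes in WT and 1 for the sexes in Y665H. The other counts of members did not change. Deviations of same-numbered libraries correlated at -0.38 to 0.73, in no comparison above 0.1 for all 4 numbers. Between 1 and 5 of 8 libraries correlated best with their own number, with 5 for the sexes in WT. The labels name nothing that same-numbered libraries share. These correlations cannot decide it, since they also carry the tissue makeup of each library.

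Over all genes, library totals moved the median log2 fold change from -0.03 to -0.18 in Y665H against Y665F females, from 0.04 to 0.19 for the sexes in WT and from 0.02 to 0.17 in Y665H, and from -0.06 to -0.24 in the interaction of Y665F. They moved the split of higher and lower calls from 361 and 160 to 1025 and 139 in Y665F against WT females, from 1358 and 1331 to 800 and 2407 in Y665H against Y665F females, from 1135 and 944 to 1937 and 676 for the sexes in WT, and from 2385 and 2155 to 3696 and 1315 in Y665H. DESeq2 called 2030 genes in place of 521 in Y665F and 1782 in place of 516 in Y665H against WT females, 1036 and 64 in place of 0 in males, 1078 in place of 164 in Y665H against Y665F males, and 3920 in place of 2079 and 4001 in place of 2361 for the sexes in WT and Y665F. The fit over all 24 libraries called 2261 and 203 genes in the male contrasts of Y665F and Y665H with WT, 250 in place of 516 in Y665H against WT females, 402 in place of 164 in Y665H against Y665F males, and 5987 in place of 2079 for the sexes in WT. With 1 library left out, the genes called numbered 67 to 747 in Y665F and 20 to 1269 in Y665H against WT females, 0 to 570 and 0 to 1 in the same male contrasts, 1554 to 2838 in females and 10 to 220 in males of Y665H against Y665F, 251 to 5134, 787 to 2180 and 3599 to 4749 for the sexes in WT, Y665F and Y665H, and 0 to 1686 and 0 to 1844 in the interactions of Y665F and Y665H. The 570, 5134, 1686 and 1844 came without WT male 1, whose epididymis sum of 1.12 CPM was the lowest of the WT males. Depth limits Socs1 most, at 33 to 167 counts per library.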
